A study of Mus musculus with 29 samples.

Results

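The nuclear genes for the respiratory chain were followed across subcellular fractions, gradient positions, cell states and puromycin exposure in the mouse myoblast line C2C12. Members were taken by gene symbol, as those that begin with Nduf (complex I), Uqcr (complex III), Cox4 to Cox8 (complex IV) or Atp5 (ATP synthase) or that read Sdha to Sdhd (complex II). They also needed at least 260 reads summed over 26 libraries of transcript 3' ends. A further gene of the complex IV group was left out by name, and it is not analysed here. Of the 88 other symbols that fit, 78 reached that number, out of 15954 genes with at least 1 read. They were 34 complex I subunits, 2 complex I assembly factors (Ndufaf3 and Ndufaf4), 3 subunits of complex II, 8 of complex III, 13 of complex IV, 14 of ATP synthase and 4 genes whose names only resemble those of subunits. Among the 13 was Ndufa4, which was named as a complex I subunit and is now placed in complex IV. The 4 others were Cox7a2l, which helps complexes III and IV to join into supercomplexes, Cox4nb, an older name of the ER membrane complex member Emc8, and Atp5s and Atp5sl, older names of Dmac2l and Dmac2. The members nearest to the limit were Atp5s with 288 reads and Ndufb11 with 622, and the nearest symbols below it were Ndufa10 with 242 and Ndufaf1 with 208. The other 8 symbols below the limit had between 0 and 153 reads, among them Sdhd with 72 and Cox4i2 with 7.

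The respiratory chain sits in the inner mitochondrial membrane, where complexes I to IV pass electrons from NADH and succinate to oxygen. Complexes I, III and IV also pump protons, and ATP synthase uses the proton gradient to make ATP. A few core subunits are encoded by mitochondrial DNA, and the others are made on cytosolic ribosomes from the nuclear genes described here and are then imported. Muscle replaces some complex IV subunits by its own forms, such as Cox6a2 for Cox6a1 and Cox7a1 for Cox7a2. Some mRNAs for mitochondrial proteins are translated close to the mitochondrial surface, and a crude membrane fraction can hold mitochondria as well as endoplasmic reticulum (ER).

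C2C12 is an established line of mouse myoblasts that fuse into myotubes when serum is lowered. Cells were split into a membrane and a cytosol fraction, and each fraction was separated on a gradient into polysomes (mRNAs with several ribosomes) and monosomes. The 16 gradient libraries comprised 2 replicates of each of 8 groups. These were membrane polysome, membrane monosome, cytosol polysome and cytosol monosome of differentiating and of proliferating cells. The labels of the differentiating polysome libraries give a medium with 2% horse serum, whereas those of the differentiating monosome libraries give the 10% fetal bovine serum of the proliferating cells. If these labels are right, medium and gradient position cannot be told apart within the differentiating state. Whether they are right was not tested. A further 8 libraries of whole fractions came from proliferating cells, as membrane and cytosol pairs from cells left untreated and from cells with 100 µg/ml puromycin for 0, 30 and 60 min. Puromycin releases unfinished chains from ribosomes. A single membrane and cytosol pair of whole fractions and 3 RNA-seq libraries (membrane, cytosol and insoluble fractions), all from proliferating cells, completed the series. Gradient RNA was extracted with phenol and chloroform and all other RNA with TRIzol. No label says whether the replicates were separate cultures, so p-values measure the spread between these libraries, which may be technical.

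The 26 libraries held between 2964852 and 11631401 reads. The summed level of 16 ER marker genes was 2631 to 12080 CPM (read counts scaled to a common library total) in the 8 membrane gradient libraries and 446 to 2080 CPM in the 8 cytosol ones, without overlap. All 16 proliferation markers fell and all 20 tested muscle markers rose in differentiating cells. The sum of 21 muscle markers was 32875 to 109048 CPM in the 4 differentiating libraries of replicate 1 and 8518 to 15414 CPM in the 4 of replicate 2, against 341 to 718 CPM in the 8 proliferating libraries. Summed markers of immune cells (6 genes), endothelium (4) and fat cells (4) stayed at or under 2.38 CPM in the gradient libraries. The summed level of cytosolic ribosomal protein genes was 27680 to 37664 CPM in the 4 membrane polysome libraries and 155317 to 334581 CPM in the 4 cytosol monosome libraries.

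Together the 78 genes took 3.42% of all reads, and between 2.46% and 5.61% of a library. In this assay a read marks 1 transcript end, so that levels of different genes need no correction for length. Uqcr11, a small subunit of complex III, held 23.4% of the 5589146 reads of the members, Cox4i1 10.6% and Cox6c 7.54%, and 5 genes held 51.8%. The gene with the highest mean gradient level in complex III was Uqcr11, at 5200, 11263 and 19127 CPM (lowest, median and highest of 8 libraries) in differentiating cells and 5082, 7159 and 11278 CPM in proliferating cells. In complex IV it was Cox4i1, the ubiquitous form of subunit 4, at 2389, 4098 and 8659 CPM in differentiating and 1466, 2674 and 5306 CPM in proliferating cells. In ATP synthase it was Atp5a1, the alpha subunit, at 749.97, 1289 and 2966 CPM in differentiating and 1175, 1541 and 2799 CPM in proliferating cells. In complex I it was Ndufa2, an accessory subunit, at 800.4, 1942 and 2920 CPM in differentiating and 800.7, 1133 and 2983 CPM in proliferating cells. In complex II it was Sdha, the flavoprotein that oxidizes succinate, at 69.2, 184 and 297 CPM in differentiating and 73.4, 224 and 674 CPM in proliferating cells. The order of these 5 genes thus spanned well over an order of magnitude, with Uqcr11 above Cox4i1 in medians of both states, and the ranges of Atp5a1 and Ndufa2 overlapped. Subunits of the same complex were as far apart as this, since Uqcrc2, a core protein of complex III, had 8.35 to 43.6 CPM over the gradient libraries. Genes of the respiratory chain have many processed pseudogenes, and the sources used here do not give how reads that fit several places were counted. Levels of single genes carry that uncertainty. RNA-seq, counted over 3' UTR parts and not corrected for length here, ordered some genes otherwise. In its cytosol library Atp5c1 had 976 and Atp5a1 247 CPM. In the 3' end library of whole cytosol they had 53.0 and 1557 CPM. The reason was not tested.

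In proliferating cells more members were lower than higher in the membrane fraction, with Sdha, Ndufs1 and Ndufc2 among the higher ones and Atp5k, Uqcr10 and Ndufa6 among the lower ones. Of 78 members tested, 10 were higher in the membrane libraries (12.8%) and 20 lower (25.6%). In comparison, 23.2% of all 11176 genes tested were higher and 11.5% lower (edgeR's quasi-likelihood test, Benjamini-Hochberg adjusted p under 0.05). The median log2 fold change of membrane over cytosol was -0.44 for the members and 0.17 for all genes. With DESeq2 size factors in place of TMM (edgeR's default scaling) the median of all genes moved to -0.0044. In that setting 9 members were higher and 30 lower, beside 2231 and 1815 of all 11176 genes.

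The gene with the lowest p among the higher ones was Sdha, and it had 515 and 674 CPM in proliferating membrane polysome libraries and 299.9 and 559 CPM in membrane monosome libraries. In the cytosol it had 83.6 and 73.4 CPM in polysome and 149 and 113 CPM in monosome libraries. All 4 membrane libraries lay above all 4 cytosol libraries, with a log2 fold change of 2.32 ± 0.25 (SE; adjusted p = 1.32e-05). Ndufs1, the largest iron-sulfur subunit of complex I, had 43.1 and 64.7 CPM in membrane polysomes and 57.8 and 85.0 CPM in membrane monosomes. In the cytosol it had 12.5 and 19.1 CPM in polysomes and 11.8 and 9.73 CPM in monosomes. Its groups did not overlap either, at a log2 fold change of 2.25 ± 0.25 (adjusted p = 1.76e-05). The other 3 with the lowest p were complex I genes too: Ndufc2, an accessory subunit of the membrane arm (2.04 ± 0.29, adjusted p = 0.000114), Ndufv1, the core subunit that binds NADH (1.83 ± 0.31, adjusted p = 0.000485), and Ndufa9, an accessory subunit (1.40 ± 0.24, adjusted p = 0.000565). Both core proteins of complex III were higher, Uqcrc1 by 1.79 ± 0.35 and Uqcrc2 by 1.25 ± 0.32 on the log2 scale (adjusted p = 0.0013 and 0.0075). Atp5b, the catalytic beta subunit of ATP synthase, had 433 and 882 CPM in membrane polysomes and 227 and 675 CPM in membrane monosomes. In the cytosol it had 220.4 and 299.9 CPM in polysomes and 104 and 215 CPM in monosomes. Its membrane and cytosol libraries overlapped, and its log2 fold change was 1.42 ± 0.38 (adjusted p = 0.0111). Cox6a1 and Ndufb5 completed the 10. Replicate 2 of the membrane libraries was above replicate 1 for Sdha, Ndufs1 and Atp5b at both gradient positions.

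**Figure D1:**
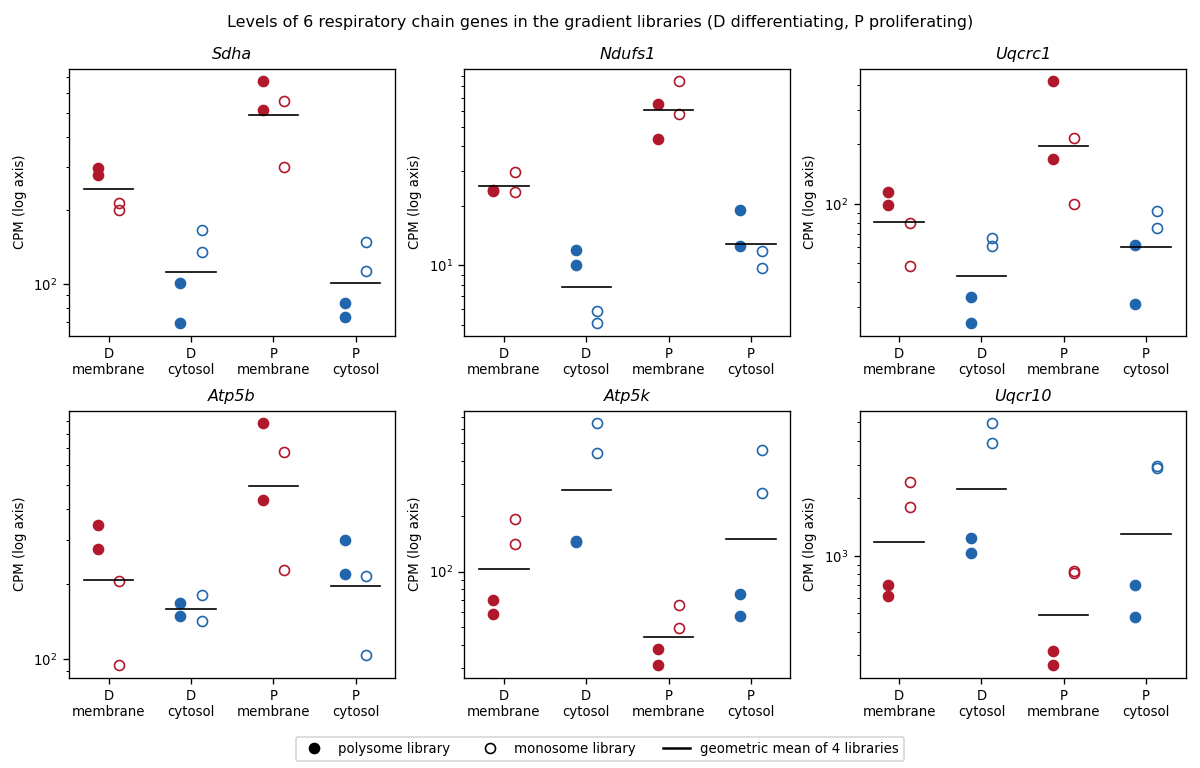
Levels of 6 members in CPM (log axis) in the 16 gradient libraries, as filled points for polysome and open points for monosome libraries, with the geometric mean of the 4 libraries of a state and fraction as a bar. Sdha, Ndufs1, Uqcrc1 and Atp5b have their highest mean in proliferating membrane libraries, with Sdha at 299.9 to 674 CPM there, and Atp5k and Uqcr10 have their lowest mean there.

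The gene with the lowest p among those lower in the membrane fraction was Atp5k, the small subunit e of ATP synthase, with 30.8 and 38.0 CPM in membrane polysomes and 65.6 and 49.2 CPM in membrane monosomes. In the cytosol it had 75.3 and 57.3 CPM in polysomes and 458 and 267 CPM in monosomes. The gap was widest between the monosome libraries, and the log2 fold change was -1.80 ± 0.25 (adjusted p = 8.97e-05). Uqcr10, a small subunit of complex III, had 266 and 319 CPM in membrane polysomes and 812 and 836 CPM in membrane monosomes, against 702 and 476.5 CPM in cytosol polysomes and 2952 and 2875 CPM in cytosol monosomes (log2 fold change -1.42 ± 0.21, adjusted p = 0.000197). Ndufa6, an accessory subunit of complex I, had a log2 fold change of -1.29 ± 0.24 (adjusted p = 0.000897). In the stalk of ATP synthase, Atp5o had -1.21 ± 0.22 and Atp5h -1.36 ± 0.26 (adjusted p = 0.000942 and 0.00121). By complex, 5 of 34 complex I subunits were higher and 9 lower, and 1 of 3 of complex II was higher and none lower. Of complex III 2 of 8 were higher and 3 lower, 1 of 13 of complex IV was higher and 2 lower, and 1 of 14 of ATP synthase was higher and 5 lower. Of the genes named like subunits, Cox7a2l was lower (-1.48 ± 0.36, adjusted p = 0.00655), while Cox4nb (0.02 ± 0.26), Atp5s (-0.05 ± 0.48) and Atp5sl (-0.22 ± 0.28) did not pass the test. The polysome groups alone gave 10 higher and 9 lower members, beside 2122 and 578 of all 11176 genes. The monosome groups alone gave 5 and 12 members, beside 1084 and 716 genes. This alternative was added after the data had been seen.

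**Figure D2:**
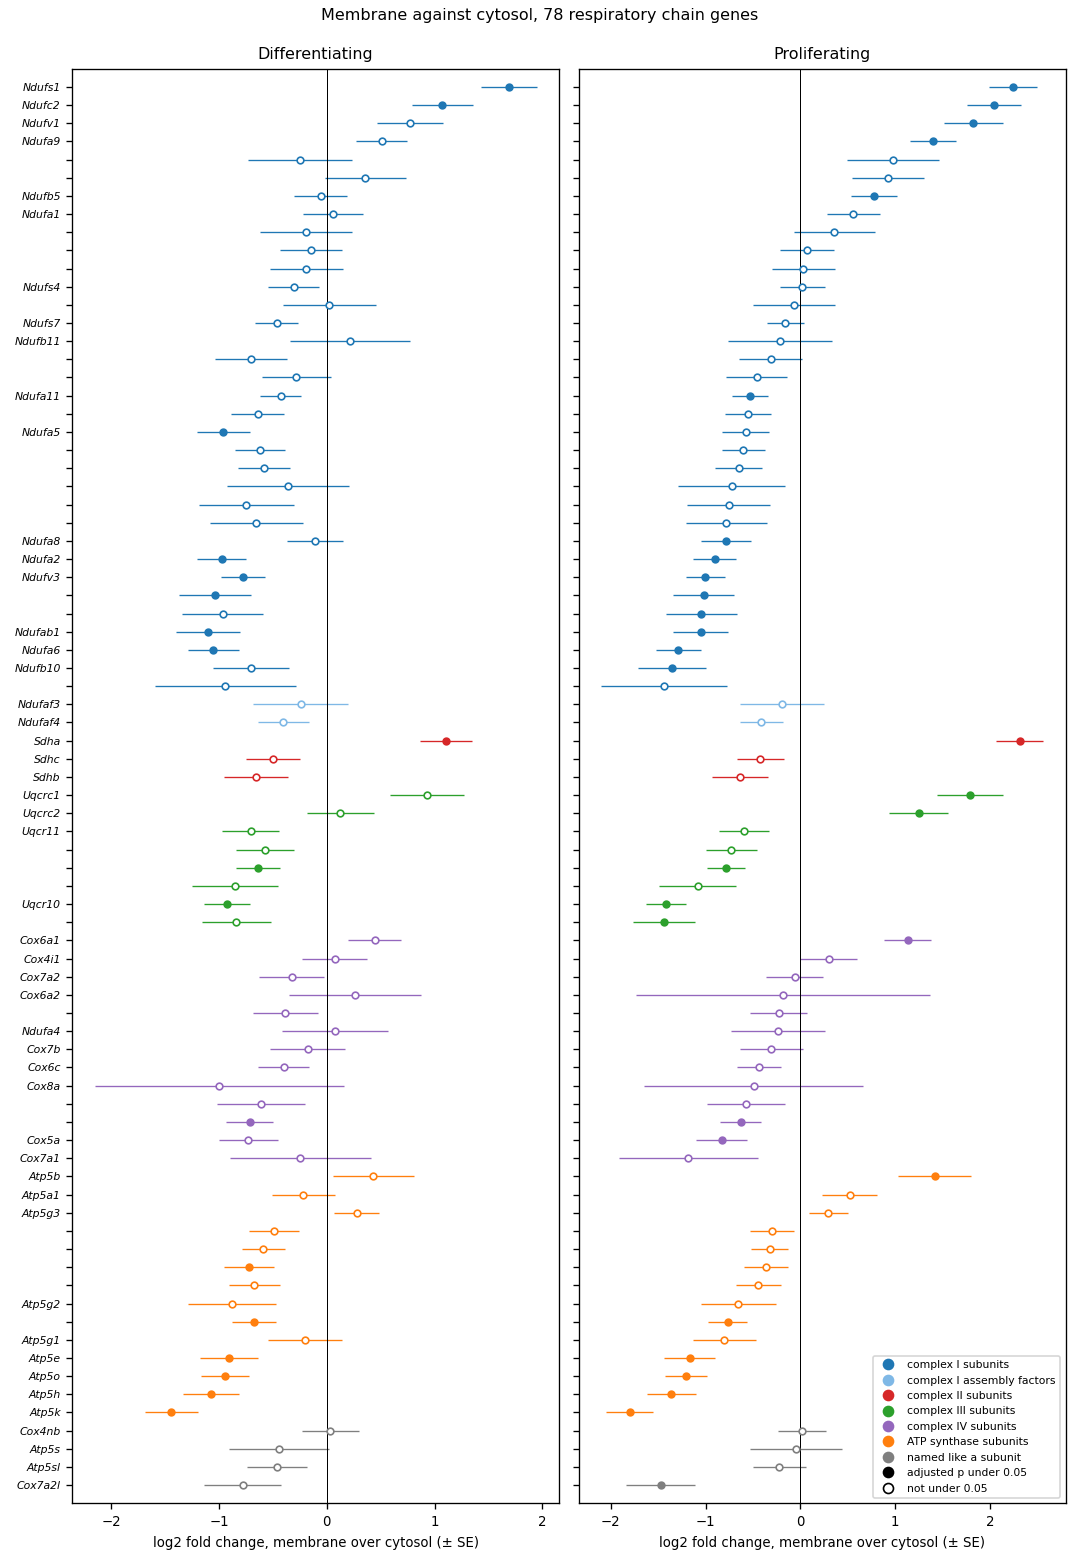
Log2 fold change of membrane over cytosol for each of the 78 members, with SE bars, in differentiating cells (left) and proliferating cells (right), ordered by complex and by the proliferating value. Row labels are given for members named in the text. Filled points have an adjusted p under 0.05; Sdha reaches 2.32 and Atp5k -1.80 in proliferating cells.

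In differentiating cells the same comparison gave 3 higher members (3.85%) and 15 lower (19.2%), against 14.2% and 5.49% of all genes tested. The median was -0.47 for the members and 0.07 for all genes. Ndufs1 had 23.8 and 23.9 CPM in differentiating membrane polysomes and 29.4 and 23.4 CPM in membrane monosomes, against 10.0 and 12.0 CPM in cytosol polysomes and 5.10 and 5.90 CPM in cytosol monosomes, a log2 fold change of 1.69 ± 0.26 (adjusted p = 0.000497). Sdha had 297 and 278 CPM in membrane polysomes and 201 and 214 CPM in membrane monosomes, against 101 and 69.2 CPM in cytosol polysomes and 167 and 135 CPM in cytosol monosomes (1.11 ± 0.24, adjusted p = 0.00546). For both genes the membrane libraries lay above all cytosol libraries, as they did for Ndufc2 (1.07 ± 0.29, adjusted p = 0.0179). Atp5b had 0.43 ± 0.38 and Uqcrc1 0.93 ± 0.34 and neither passed the test. Atp5k was again the lower gene with the lowest p, with 69.7 and 58.9 CPM in membrane polysomes and 195 and 141 CPM in membrane monosomes, against 146 and 146 CPM in cytosol polysomes and 646.5 and 445 CPM in cytosol monosomes (-1.44 ± 0.24, adjusted p = 0.000968). Next came Ndufa6 (-1.05 ± 0.24), Uqcr10 (-0.93 ± 0.21), Ndufa2 (-0.97 ± 0.23) and Atp5o (-0.94 ± 0.22), with adjusted p of 0.00663, 0.0074, 0.00834 and 0.00896. The count of 15 lower members rested on single libraries. It was 6 without the membrane polysome replicate 2 and 7 without either the membrane monosome replicate 1 or the cytosol monosome replicate 2. It was 8 without the cytosol polysome replicate 1, and 9 without either the cytosol polysome replicate 2 or the cytosol monosome replicate 1. Ndufa2 lost its call without the membrane polysome replicate 2 (adjusted p = 0.0541). Ndufc2 lost it without the membrane polysome replicate 1, the cytosol polysome replicate 2, the cytosol monosome replicate 1 or the membrane monosome replicate 2, with adjusted p up to 0.0735.

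In the fit without a term for the replicate number, the test of the difference between the states in the membrane-to-cytosol ratio passed for no member and for no gene of 11176, so that a share of 0.0% was called in both directions. At an unadjusted p under 0.05 it had 6 members and 669 genes. DESeq2's test called 0 members, and 4 genes upward and 9 downward. Those 6 were Sdha (-1.21 ± 0.34), Uqcrc2 (-1.12 ± 0.44), Ndufv1 (-1.06 ± 0.43), Ndufc2 (-0.97 ± 0.40), Ndufa9 (-0.89 ± 0.34) and Ndufb5 (-0.83 ± 0.35), with the differentiating ratio the smaller in each, and their adjusted p lay between 0.683 and 0.768. The ER marker sum was also lower in the differentiating membrane libraries, at 2631 to 6152 CPM, against 4569 to 12080 CPM in the proliferating ones, and its part in these differences was not tested.

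Separate libraries of whole fractions, without a gradient, gave part of this pattern. In the single pair of whole fractions of proliferating cells, Sdha had 663 CPM in the membrane and 75.5 CPM in the cytosol library, Uqcrc1 309 and 41.7 CPM, and Atp5b 698 and 279 CPM. All 10 members higher in the proliferating gradient libraries had a ratio above 0 on the log2 scale here (median 1.76), and 19 of the 20 lower members had one below 0 (median -1.06), with Ndufa8 as the exception. Of all 78 members, 26 were above 0 in this pair (median -0.47). In the untreated pair of the puromycin series 6 of those 10 were above 0, and Atp5b, Ndufa9, Ndufb5 and Uqcrc2 were below it, while all 20 lower ones were below 0 (median -1.47). Only 12 of all 78 members were above 0 in that pair (median -0.94). Atp5b had 375 CPM in the untreated membrane library and 458 CPM in the untreated cytosol library, the opposite order to the other pair. RNA-seq had 65 members at 20 or more reads in both libraries. It placed 9 of the 10 above 0, with a median of 0.23 for the 10. It placed 17 of 17 of the lower ones below 0 (median -0.84). Of all 65 members, 19 were above 0 (median -0.43), while the median of all 8091 genes with that many reads was -0.19. Sdha had 757 membrane reads and 221 cytosol reads there, a log2 ratio of 1.21 (95% Poisson interval 0.998 to 1.43, for counting error only), and Ndufb5 was the gene that went the other way (-0.32, interval -0.55 to -0.09). Of the others above 0, Ndufs1, Ndufa9, Uqcrc1, Ndufv1 and Uqcrc2 had intervals that included 0, and Ndufc2, Cox6a1 and Atp5b did not. These single libraries allow no test, and the share of all genes above 0 was not computed for them.

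Fitted over the 8 puromycin-series libraries with a term for each pair, membrane over cytosol at 0 min was negative for most members. In that fit each condition had a single library per fraction, so its p-values measure the spread between conditions, not between replicates. Of 76 members tested, 4 were higher (5.26%) and 51 lower (67.1%), against 25.8% and 21.4% of all 9919 genes, and the median log2 fold change was -0.87 for the members and 0.02 for all genes. The 4 higher ones were Cox4i1 (1.01 ± 0.20, adjusted p = 0.0102), Cox6a1 (1.17 ± 0.25, adjusted p = 0.0127), Sdha (1.15 ± 0.27, adjusted p = 0.0177) and Ndufa1, a small complex I subunit (1.00 ± 0.27, adjusted p = 0.0267). Cox4i1 had 5113, 4879, 4222 and 4027 CPM in the membrane libraries (untreated, 0, 30 and 60 min), against 2065, 2709, 3250 and 3022 CPM in the cytosol libraries. Its membrane libraries were all above its cytosol libraries, whereas in the proliferating gradient libraries it had a log2 fold change of 0.30 ± 0.30 and did not pass. Among the lower members the lowest p went to Atp5e (-1.81 ± 0.22), Atp5h (-1.47 ± 0.18), Atp5o (-1.43 ± 0.18), Ndufab1 (-1.63 ± 0.21) and Atp5k (-1.75 ± 0.23), with adjusted p between 0.00456 and 0.00504. Atp5k had 16.2, 25.9, 20.5 and 17.6 CPM in the membrane series, against 68.8, 72.2, 50.7 and 39.3 CPM in the cytosol series. Without the untreated pair 0 of 76 members and 0 of 9999 genes passed, and the median of the members was -0.77.

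At 30 and 60 min of puromycin the levels of several members that were higher in the membrane fraction were closer to, or below, those in the cytosol. Sdha had 698, 640, 464 and 431 CPM in the membrane libraries in the order untreated, 0, 30 and 60 min, and 238, 312, 608 and 583 CPM in the cytosol libraries. Its membrane libraries were the higher ones untreated and at 0 min, and its cytosol libraries the higher ones at 30 and 60 min. The ER marker sum went 12063, 12675, 5684 and 5454 CPM in the membrane and 773, 662, 7983 and 7177 CPM in the cytosol libraries, so that the cytosol library held more than the membrane library at 30 and 60 min; its part in the changes of the members was not tested. A slope of the membrane-to-cytosol ratio over minutes passed for 0 of 76 members and for 0 of 9919 genes, with 14 members and 2535 genes at an unadjusted p under 0.05, and DESeq2's test called 1 member higher and 1 lower, beside 49 genes higher and 1143 lower. As another coding, 30 and 60 min were set against untreated and 0 min, with a single library per fraction and condition. The p-values of that comparison measure how alike the conditions set together were, not the spread between replicates. The ratio was then higher for 21 members and lower for 11, against 19.0% and 20.5% of all genes. Sdha had the lowest p of the lower ones (-1.71 ± 0.19, adjusted p = 3.04e-06), followed by others that included Ndufc2, Ndufa1, Ndufs1, Cox4i1, Uqcrc1 and Atp5b. Cox7a2l had the lowest p of the higher ones (1.37 ± 0.17, adjusted p = 9e-06), with 470, 485, 796 and 658 CPM in the membrane and 1186, 1256, 727 and 707 CPM in the cytosol libraries. Ndufb10, an accessory subunit of complex I, had 1.51 ± 0.25 (adjusted p = 0.000176). The level over both fractions passed for 0 of 76 members by edgeR and by DESeq2, with 1 member at an unadjusted p under 0.05, and for 0.413% of genes upward and 0.0101% downward.

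**Figure D3:**
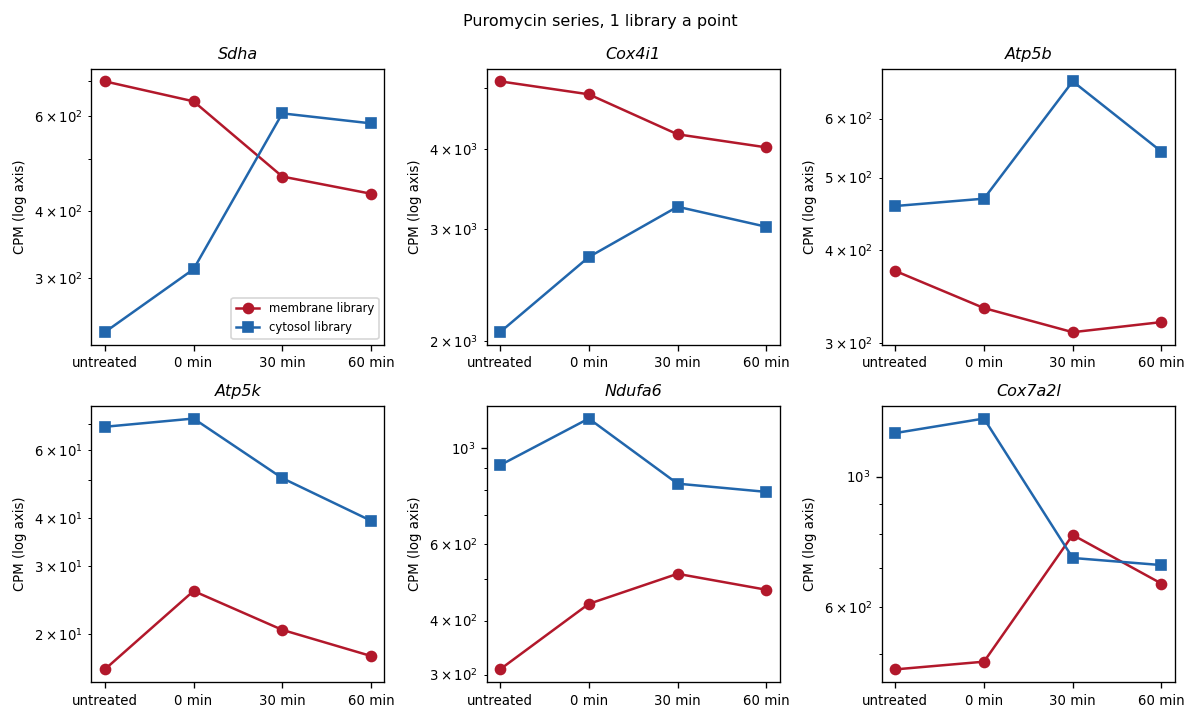
Levels in CPM (log axis) of 6 members in the puromycin series, with the membrane library in red and the cytosol library in blue for untreated cells and for 0, 30 and 60 min; each point is 1 library. The Sdha lines cross between 0 and 30 min, Cox4i1 stays higher in the membrane fraction, and Cox7a2l in the cytosol falls to 727 and 707 CPM.

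Position on the gradient split the members in both directions. In cytosol, 16 of 78 were higher in polysomes (20.5%) and 13 higher in monosomes (16.7%), close to the 21.3% and 20.1% of all genes, and the medians were 0.13 for the members and 0.03 for all genes. With DESeq2 size factors the median of all genes moved to -0.10 and that of the members to -0.0096. In that setting 11 members were higher and 17 lower, beside 2056 and 2533 of all 11176 genes. The count of 16 was 9 without the proliferating cytosol monosome replicate 2 or the differentiating cytosol polysome replicate 1, and the count of 13 was 6 without the proliferating cytosol polysome replicate 2, the proliferating cytosol monosome replicate 1 or the differentiating cytosol polysome replicate 2.

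The genes Atp5g1, Atp5g2 and Atp5g3 all encode the c subunit of the ATP synthase ring, with the same mature protein and different import signals. Atp5g3 had the lowest p of all members in cytosol, with 129 and 168 CPM in differentiating and 177 and 222 CPM in proliferating cytosol polysomes, against 21.1 and 23.2 CPM in differentiating and 31.4 and 26.1 CPM in proliferating cytosol monosomes. The 4 polysome libraries were all several times above the 4 monosome libraries (log2 fold change 2.77 ± 0.22, adjusted p = 4.23e-06). Atp5g1 was higher by 1.69 ± 0.34 (adjusted p = 0.00164), and Atp5g2, with 2.63 to 24.5 CPM over the gradient libraries, had -0.99 ± 0.40 and did not pass. The others with the lowest p were Cox4nb (1.81 ± 0.27), Cox7b, a small complex IV subunit (1.52 ± 0.35), and Sdhc, a membrane anchor of complex II (1.06 ± 0.25), with adjusted p of 0.000163, 0.00338 and 0.00415. Sdhb, the iron-sulfur subunit of complex II, was higher too, and Sdha was lower (-0.78 ± 0.24, adjusted p = 0.0184).

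Uqcr10 had the lowest p of the members lower in cytosol polysomes, with 1035 and 1240.2 CPM in differentiating and 702 and 476.5 CPM in proliferating polysomes, against 4973 and 3924 CPM in differentiating and 2952 and 2875 CPM in proliferating monosomes (-2.14 ± 0.22, adjusted p = 1.24e-05). Atp5k (-2.18 ± 0.25), Ndufb5 (-1.60 ± 0.25), Cox7a2l (-2.04 ± 0.37) and Ndufa6 (-1.30 ± 0.24) followed, with adjusted p between 2.44e-05 and 0.000747. Of 73 tested genes of cytosolic ribosomal proteins, 65 were lower in cytosol polysomes and 1 higher; their part in the members' values was not tested.

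In the membrane fraction 12 members were higher in polysomes (15.4%) and 4 lower (5.13%), against 8.67% and 4.4% of all genes, with medians of 0.30 for the members and 0.22 for all genes. With DESeq2 size factors 3 were higher and 6 lower, beside 564 and 622 of all 11176 genes, and the median of all genes moved to 0.06. The count of 12 was 1 without the proliferating membrane monosome replicate 1, 2 without the proliferating membrane polysome replicate 2 or the differentiating membrane polysome replicate 1. It was 3 without the differentiating membrane monosome replicate 2, 5 without the differentiating membrane monosome replicate 1, and 6 without the proliferating membrane polysome replicate 1 or the differentiating membrane polysome replicate 2. The count of 4 was 2 without the proliferating membrane polysome replicate 2. Ndufa11, an accessory subunit in the membrane arm of complex I, was higher by 1.18 ± 0.19 (adjusted p = 0.00265) and kept its call without each of the 16 libraries, at adjusted p between 0.00407 and 0.028. Ndufs7, a core iron-sulfur subunit, followed at 0.98 ± 0.20 (adjusted p = 0.00767, and 0.1002 without the proliferating membrane monosome replicate 1). Next were Cox5a (1.11 ± 0.27), Atp5g3 (0.82 ± 0.21) and Ndufa5 (0.94 ± 0.25), with adjusted p up to 0.155, 0.131 and 0.159 when 1 library was left out. Uqcr10 had the lowest p of the lower ones, with 704 and 618 CPM in differentiating and 266 and 319 CPM in proliferating membrane polysomes, against 2425 and 1808 CPM in differentiating and 812 and 836 CPM in proliferating membrane monosomes (-1.59 ± 0.22, adjusted p = 0.000842). Cox7a2l (-1.62 ± 0.37), Atp5k (-1.06 ± 0.24) and Atp5sl (-1.22 ± 0.28) were the other 3. Leaving out 1 library ended the call of Cox7a2l (replicate 2 of the proliferating or differentiating membrane polysomes), of Atp5k (proliferating membrane polysome replicate 1 or differentiating membrane monosome replicate 1) and of Atp5sl (proliferating membrane polysome replicate 2 or differentiating membrane polysome replicate 1). Their adjusted p was then at most 0.0611.

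**Figure D4:**
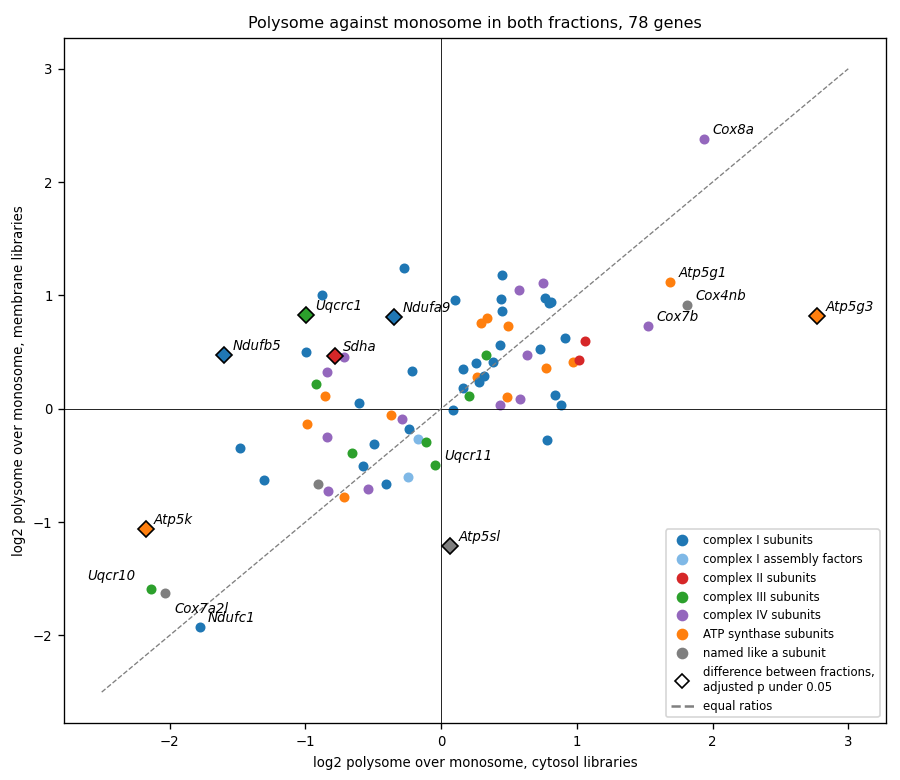
Log2 fold change of polysome over monosome for the 78 members in membrane libraries (vertical axis) and cytosol libraries (horizontal axis), coloured by complex. Diamonds mark the 7 genes whose ratios differed between the fractions; Atp5g3 lies far right at 2.77 in cytosol, and Ndufb5, Uqcrc1, Sdha and Ndufa9 lie in the upper left part.

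For 7 members the ratio of polysome to monosome levels was not the same in membrane and cytosol. It was larger in the membrane fraction for 5 (6.41%) and smaller for 2 (2.56%), against 10.5% and 4.14% of all genes. Ndufb5, an accessory complex I subunit, had a difference of 2.07 ± 0.35 (adjusted p = 0.00123). Its levels were 487.5 and 404 CPM in differentiating and 639 and 747 CPM in proliferating membrane polysomes, against 379 and 649.6 CPM in differentiating and 289 and 334 CPM in proliferating membrane monosomes. In cytosol it had 209.7 and 297 CPM in differentiating and 211 and 142 CPM in proliferating polysomes, against 826 and 1129.6 CPM in differentiating and 475 and 359 CPM in proliferating monosomes. So it was higher in monosomes in all cytosol comparisons and higher in polysomes in the proliferating membrane libraries. Uqcrc1 (1.81 ± 0.48), Sdha (1.25 ± 0.34), Ndufa9 (1.16 ± 0.34) and Atp5k (1.11 ± 0.34) had the other larger ratios, and Atp5g3 (-1.95 ± 0.29) and Atp5sl (-1.28 ± 0.39) the smaller ones. Ndufb5 and Atp5g3 kept the call without each of the 16 libraries. Of the 16 fits without 1 library, Uqcrc1 kept the call in 11, Sdha in 9, Ndufa9 in 5, Atp5k in 3 and Atp5sl in 1. The count of 5 was 1 without the proliferating membrane polysome replicate 2 or the proliferating membrane monosome replicate 1. It was 2 without the proliferating cytosol polysome replicate 1 or 2, the proliferating cytosol monosome replicate 1, the differentiating cytosol polysome replicate 2 or the differentiating membrane monosome replicate 1. It was 3 without the differentiating cytosol polysome replicate 1, the differentiating membrane polysome replicate 1 or the differentiating cytosol monosome replicate 1. The count of 2 was 1 without any of 13 of the 16 libraries, the exceptions being replicate 1 of the proliferating membrane monosomes and replicate 2 of the proliferating and of the differentiating cytosol monosomes. ER markers showed the same sign, with a higher ratio in the membrane fraction for 14 of 16 genes, and their part in the members' values was not tested.

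With differentiation more members rose than fell. Of 78, 23 rose (29.5%) and 6 fell (7.69%), against 16.3% and 19.2% of all 11176 genes, and the median log2 fold change of differentiating over proliferating was 0.32 for the members and -0.09 for all genes. The 8 libraries of a state were fractions and gradient parts under 2 replicate numbers, and those with the same number deviated together. They are not 8 independent cultures, so p-values between the states may be too small. In bulk RNA, fewer cells of a kind and less RNA per cell cannot be told apart. The muscle form Cox6a2 had the largest change, with 182 and 74.9 CPM in membrane polysomes, 98.3 and 22.0 CPM in membrane monosomes, 108 and 27.8 CPM in cytosol polysomes and 137 and 21.3 CPM in cytosol monosomes of differentiating cells (replicates 1 and 2). It had 0 to 0.551 CPM in the 8 proliferating libraries. The states did not overlap, with 3557 reads in the differentiating and 13 in the proliferating libraries, and the fitted log2 fold change was 8.11 ± 0.68 (adjusted p = 3.27e-06). It had 3575 reads in all 26 libraries, so it passed the limit of 260 reads only through the differentiating ones. Its place among the members thus depends on the state in which it was high. In all 4 differentiating groups replicate 1 had more than replicate 2, as it had for the sum of muscle markers. Of the reads of Cox6a2 and Cox6a1 together, Cox6a2 held 25.4%, 49.4% and 71.3% (lowest, median and highest of 8 libraries) in differentiating cells and 0.0%, 0.351% and 1.12% in proliferating cells. Cox6a1 had 47.6 to 91.6 CPM in differentiating and 33.1 to 123 CPM in proliferating libraries, which overlapped (-0.06 ± 0.17). Cox7a1, the muscle form of subunit 7a, had 16.1 to 22.3 CPM in replicate 1 and 4.66 to 6.49 CPM in replicate 2 of differentiating cells, against 0.734 to 9.92 CPM in proliferating cells (2.11 ± 0.50, adjusted p = 0.00583). Its states overlapped, and it made up 0.923% to 2.69% of the reads of Cox7a1 and Cox7a2 in differentiating and 0.132% to 1.45% in proliferating libraries. Cox7a2 had 456 to 1099 CPM in differentiating and 374 to 1029.7 CPM in proliferating libraries (0.06 ± 0.21). Cox4i1 rose (0.63 ± 0.21, adjusted p = 0.0323). It lost the call without the proliferating membrane polysome replicate 1, cytosol polysome replicate 2 or cytosol monosome replicate 2, or without the differentiating membrane polysome replicate 1, cytosol polysome replicate 2, cytosol monosome replicate 2 or membrane monosome replicate 2, with adjusted p up to 0.0888. In the polysome groups alone its log2 fold change was -0.0389. Its paralog Cox4i2 had 7 reads in all 26 libraries. Cox8a, the ubiquitous form of subunit 8, had 0.80 ± 0.82 and did not pass; its replicates were far apart, with 4.71 and 140 CPM in the differentiating and 1.32 and 89.9 CPM in the proliferating membrane polysomes.

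**Figure D5:**
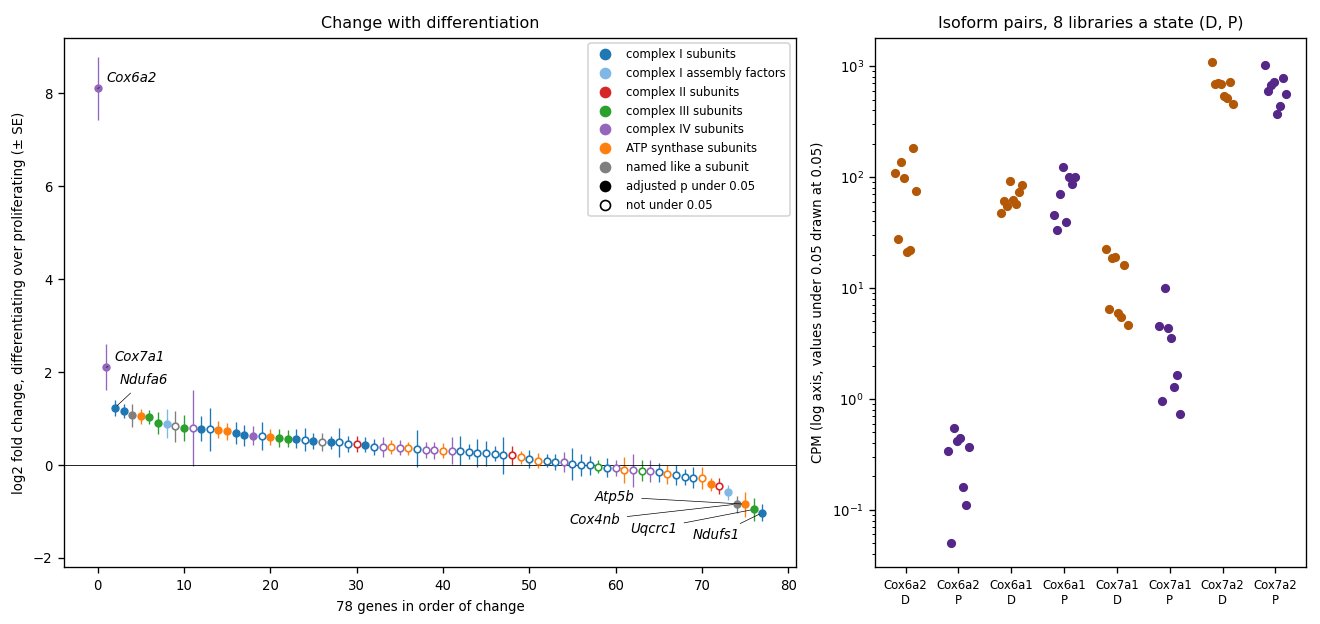
Left, log2 fold change of differentiating over proliferating with SE for the 78 members in order of change, filled where the adjusted p was under 0.05. Right, CPM (log axis, values under 0.05 drawn at 0.05) of 2 pairs of complex IV isoforms in the 8 differentiating (D) and 8 proliferating (P) gradient libraries; Cox6a2 has 21.3 to 182 CPM in differentiating cells and at most 0.551 CPM in proliferating cells.

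Among the other members that rose, Ndufv3, an accessory subunit of complex I, had 88.8, 125, 74.2 and 92.2 CPM in differentiating membrane and 169, 208, 131 and 147 CPM in differentiating cytosol libraries (polysome replicates 1 and 2, then monosome replicates 1 and 2). It had 33.9, 46.9, 37.9 and 37.1 CPM in proliferating membrane and 75.5, 87.2, 69.97 and 79.6 CPM in proliferating cytosol libraries. Within each fraction all differentiating libraries lay above all proliferating ones (1.17 ± 0.15, adjusted p = 6.11e-05). Ndufa6 (1.23 ± 0.17), Uqcr10 (1.02 ± 0.15) and Atp5k (1.04 ± 0.17) had adjusted p of 0.000112, 0.000196 and 0.000448. By complex, 9 of 34 complex I subunits rose and 1 fell, none of 3 of complex II passed, 5 of 8 of complex III rose and 1 fell, 3 of 13 of complex IV rose, and 4 of 14 of ATP synthase rose and 2 fell. The 6 that fell were Ndufs1 (-1.02 ± 0.18, adjusted p = 0.000681), Cox4nb (-0.84 ± 0.18, adjusted p = 0.00329), Uqcrc1 (-0.95 ± 0.24, adjusted p = 0.00814), the assembly factor Ndufaf4 (-0.59 ± 0.16, adjusted p = 0.0139), Atp5b (-0.84 ± 0.27, adjusted p = 0.0258) and Atp5g3 (-0.41 ± 0.15, adjusted p = 0.0403). Atp5b had 94.5, 174 and 346 CPM in differentiating and 104, 264 and 882 CPM in proliferating cells (lowest, median and highest of 8 libraries), and lost its call without replicate 2 of any of the 4 proliferating groups or replicate 1 of any of the 4 differentiating groups, with adjusted p up to 0.108. Ndufaf4 lost its call without the proliferating cytosol polysome replicate 2 or membrane monosome replicate 2, at adjusted p = 0.0541 and 0.0511. The count of 23 was 12 without the proliferating cytosol monosome replicate 2, 13 without the differentiating cytosol or membrane polysome replicate 1. It was 14 without the proliferating cytosol polysome replicate 2 and 15 without the differentiating membrane monosome replicate 1. The count of 6 was 3 without the proliferating cytosol polysome replicate 2 or the proliferating membrane monosome replicate 2. The polysome groups alone gave 7 members that rose and 2 that fell, beside 967 and 987 of all 11176 genes. The monosome groups alone, whose medium label was the same in both states, gave 14 and 2, beside 1017 and 1236 genes. Cox6a2 rose by 8.80 ± 0.99 in the polysome groups and 7.42 ± 0.92 in the monosome groups.

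Promoters of respiratory chain genes are known targets of the transcription factors NRF1 and GABP. Promoter windows of RefSeq (build GRCm38.p6, 250 bases before to 50 after the gene's start) were matched by symbol or synonym for 65 of the 78 members. The palindromic NRF1 motif was found in 6 of the 65 (9.23%), in 2.47% of 8067 tested genes with a window and in 1.07% of all 27025 symbols with a window. These 6 are shown because they carry the full motif. The motif searched is in capitals, with 10 bases on each side, each on the strand of its gene.
Atp5g2, chr15:102671070-102671099, minus strand: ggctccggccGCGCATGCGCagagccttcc
Atp5k, chr5:108434430-108434459, minus strand: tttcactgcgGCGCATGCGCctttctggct
Cox6a1, chr5:115349101-115349130, minus strand: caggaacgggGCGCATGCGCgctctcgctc
Ndufa11, chr17:56717692-56717721, plus strand: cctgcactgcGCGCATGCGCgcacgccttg
Ndufaf4, chr4:24897960-24897989, plus strand: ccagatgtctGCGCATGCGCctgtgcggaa
Uqcrc1, chr9:108936668-108936697, plus strand: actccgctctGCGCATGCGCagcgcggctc
Of the 19 matched members that rose with differentiation 2 held the motif (Atp5k and Ndufa11), and of the 4 that fell 2 held it (Ndufaf4 and Uqcrc1). On either strand the core of the GABP motif, CCGGAAG, was in 14 of 65 (21.5%) and in 20.3% of tested genes, AAGGTCA, the estrogen-related receptor half-site, in 6 (9.23%) and 3.68%, and ATGGCGG, the YY1 core, in 10 (15.4%) and 9.59%. None of these 4 motifs is contained in another, and a match is a description of the sequence.

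Most members ended at 1 place. Of 78, 62 had a single poly(A) site with at least 5% of their reads, 10 had 2 and 6 had 3 or more, and for 65 the most used site held at least 90%. Uqcr11 had 100.0% of its 1308580 reads, to 1 decimal, at position 79865742 of chromosome 10, minus strand (build mm9, named in the submitters' processing notes), and Cox4i1 and Cox6c had 1 site each. In 16 members the 2 most used sites could be compared, out of 4554 genes with such a pair. Sdha had 3 sites of at least 5%, and its main pair lay 561 nt apart at 74460263 and 74459702 on the minus strand of chromosome 13. The distal site of that pair took 34.3%, 39.3% and 48.4% of its reads in the 8 membrane libraries (lowest, median and highest) and 29.2%, 34.4% and 43.4% in the 8 cytosol libraries, which overlapped (log2 change of the distal-to-proximal ratio 0.31 ± 0.19, adjusted p = 0.552).

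Between membrane and cytosol, 1 of the 16 pairs passed, with a smaller share of the distal site in the membrane fraction, against 0.922% of pairs with a larger and 0.132% with a smaller distal share. It was that of Ndufs4, an accessory iron-sulfur-cluster region subunit of complex I whose loss causes Leigh syndrome in humans, with sites 845 nt apart at 115078856 (proximal) and 115078011 (distal) on the minus strand of chromosome 13. The distal site took 3.85% and 4.78% of reads in differentiating and 3.79% and 1.65% in proliferating membrane polysomes, and 7.73% and 7.0% in differentiating and 4.84% and 3.28% in proliferating membrane monosomes. In cytosol it took 7.43% and 9.31% in differentiating and 6.90% and 7.34% in proliferating polysomes, and 15.4% and 13.3% in differentiating and 5.34% and 15.0% in proliferating monosomes. At each gradient position and in each state both membrane values lay below both cytosol values, although the 8 libraries of each fraction overlapped over all (log2 change -1.24 ± 0.27, adjusted p = 0.0253). RNA-seq reads were counted apart in 2 parts of the 3' UTR, labelled cUTR and aUTR. The positions of these parts were not read, so they cannot be tied to this pair of sites. A share of reads over a part is also not a share of site use. For Ndufs4 the aUTR part held 9.51% of reads in the membrane library (35 of 368 reads, 95% exact binomial interval 6.71% to 12.98%). The share was 22.1% in the cytosol library (51 of 231 reads, 16.9% to 28.0%), and in the insoluble library 42.9% (33.5% to 52.6%). Reads there are not independent molecules, and the intervals cover counting error only. The level of Ndufs4 summed over sites did not pass between the fractions, at 0.02 ± 0.24 in proliferating and -0.31 ± 0.24 in differentiating cells. The call was lost at an adjusted p of 0.0511 to 0.0817 when the differentiating membrane polysome replicate 1, membrane monosome replicate 1 or 2 or cytosol monosome replicate 1, or the proliferating membrane polysome replicate 2, membrane monosome replicate 2, cytosol polysome replicate 1 or 2 or cytosol monosome replicate 2 was left out. No member passed between polysomes and monosomes, where 0.769% and 0.242% of pairs did, or between states, where 1.1% and 0.439% did. At an unadjusted p under 0.05 there was 1 member in the first and 3 in the second, and limma called 0 in both. In the second these were Atp5a1 (0.50 ± 0.15), Cox7b (1.67 ± 0.55) and Ndufs4 (0.64 ± 0.27), with adjusted p of 0.0952, 0.146 and 0.28.

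Other mitochondrial genes encoded in the nucleus gave the following counts, to be read against all genes, of which 23.2% were higher and 11.5% lower in the membrane fraction of proliferating cells and 16.3% rose and 19.2% fell with differentiation. Of 18 tested genes of the citric acid cycle and pyruvate dehydrogenase, 6 were higher in the membrane fraction of proliferating cells and none lower (median log2 fold change 0.55), and none rose and 3 fell with differentiation. The 6 included Ogdh, the first subunit of the oxoglutarate dehydrogenase complex (1.82 ± 0.37, adjusted p = 0.00188), and Idh2, which makes NADPH from isocitrate (1.11 ± 0.30, adjusted p = 0.0114). Of 73 mitochondrial ribosomal proteins, 6 were higher in the membrane fraction of proliferating cells and 31 lower (median -0.66), and 3 rose and 5 fell with differentiation. Of 40 assembly factors and electron carriers, 5 were higher and 9 lower between the fractions, and 5 rose and 8 fell with differentiation. Of 32 carriers and import factors, 5 were higher and 8 lower, and 3 rose and 8 fell. Among 11 tested regulators of mitochondrial genes none rose with differentiation and 4 fell, namely both GABP subunits, Gabpb1 (-0.87 ± 0.23, adjusted p = 0.00892) and Gabpa (-0.71 ± 0.22, adjusted p = 0.0247), the coactivator Pprc1 (-0.53 ± 0.18, adjusted p = 0.0335) and Nrf1 (-0.43 ± 0.15, adjusted p = 0.0364). The differences between these lists and the respiratory chain were not tested.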

How the data were processed

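Counts of 3' end reads per poly(A) site in 26 libraries, and counts of RNA-seq reads in 3' UTR parts in 3 libraries, were used as the authors deposited them. Per the submitters' processing notes, the build was mm9 and cutadapt, Bowtie2 and STAR (2.5.2) were used; their settings, and the treatment of reads that fit several places, were not given in the sources used here. Reads were summed per gene symbol; positions listed under more than 1 symbol (651 positions, 0.56% of reads) were left out of the sums.

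The members, gene lists and tests were chosen with earlier results of these data known. Groups followed the labels. Genes were filtered with filterByExpr, scaled with TMM and tested with edgeR's (4.0.16) robust quasi-likelihood F test in R 4.3.3, in 1 fit of the 16 gradient libraries with a mean per group, at a Benjamini-Hochberg adjusted p under 0.05 over all genes. The 8 puromycin-series libraries had a term per pair, fraction, and fraction by minutes, with untreated coded as 0 min. Pairs of poly(A) sites had a term per library, at least 10 mean reads and 5% for the rarer site. CPM use TMM-scaled totals, or plain totals for the unreplicated pair of whole fractions. RNA-seq ratios used genes with at least 20 reads in both libraries.

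Any member could be named. Values per library or ranges were given for up to 5 members in each direction with the lowest p in a comparison, the highest member of each complex, the isoform pairs and the genes named like subunits. Alternatives used DESeq2 1.42.0, limma 3.58.1, other scaling and filters, subsets of groups, and each library left out. The procedure was tested on simulated data.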

Additional observations from a re-analysis of the deposited data

Results flagged for a closer look

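For 7 members a test of the difference between membrane and cytosol in the ratio of polysome to monosome levels passed (edgeR's quasi-likelihood test, 16 libraries). The log2 difference, membrane minus cytosol, was 2.07 for Ndufb5, 1.81 for Uqcrc1, 1.25 for Sdha, 1.16 for Ndufa9 and 1.11 for Atp5k, and it was -1.95 for Atp5g3 and -1.28 for Atp5sl. Ndufb5 and Atp5g3 kept an adjusted p under 0.05 without each of the 16 libraries, at up to 0.00814 and 0.00211, whereas Uqcrc1, Sdha, Ndufa9, Atp5k and Atp5sl reached 0.071, 0.0782, 0.118, 0.113 and 0.101. The differences of 10.5% of all genes passed upward and 4.14% downward.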

How the results depend on the processing

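Over 79 single-gene results and 1698 comparisons with another setting, 1463 kept direction and side of the threshold, 193 no longer passed, 12 newly passed and 30 reversed. Of the 79 results, 52 changed under some setting. Where no value shows it, the cause was not tested. Counts of members are given as higher and lower. For membrane against cytosol in proliferating cells the monosome groups alone gave 5 and 12 (1084 and 716 of 11176 genes). The polysome groups alone gave 9 lower (578 genes), and DESeq2's test 35 lower (1992 genes). In differentiating cells the monosome groups alone gave 1 and 2 (201 and 56 genes), the polysome groups alone 4 lower (225 genes), and DESeq2's test 26 lower (1135 genes). For polysome against monosome in cytosol the differentiating state alone gave 5 and 7 (1409 and 1264 of 11176 genes) and the proliferating state alone 7 lower (1431 genes). In the membrane fraction the differentiating state alone gave 1 higher (229 of 11176 genes) and the proliferating state 1 and 1 (40 and 49 genes). DESeq2 size factors gave 3 higher (564 genes), no filter 2 higher (448 of 15551 genes) and DESeq2's test 9 lower (845 of 11176 genes). For the difference between fractions no filter gave 2 higher (997 of 15551 genes) and DESeq2's test 8 higher (1358 of 11176 genes). For differentiating against proliferating the polysome groups alone gave 7 and 2 (967 and 987 of 11176 genes). The monosome groups gave 14 and 2 (1017 and 1236 genes), cytosol 6 and 1 (821 and 793 genes) and membrane 10 higher (1072 genes). In the puromycin series the coding by exposure gave 8 higher at no exposure, and 21 and 11 for the change; without the untreated pair 0 and 0 passed, with fewer libraries in the fit; DESeq2's test gave 1 and 1 for the change. The Ndufs4 site pair was not called with limma (0). With a rarer site of at least 10% it was not tested, because its rarer site held 6.47% of the reads of the pair.

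Leaving out 1 library at a time, counts lay between 7 and 10 higher and 14 and 27 lower (membrane against cytosol, proliferating), 2 and 4, and 6 and 18 (differentiating), 9 and 16, and 6 and 13 (polysome against monosome, cytosol), 1 and 13, and 2 and 4 (membrane fraction), 1 and 4, and 1 and 3 (difference between fractions), 12 and 26, and 3 and 6 (differentiating against proliferating), and 0 and 1 for the Ndufs4 pair.

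Libraries with the same replicate number deviated together within a state (correlations 0.508 to 0.757) and less across states (0.114 to 0.283), but the labels tie the numbers to no culture, and with 2 numbers this is a hint only. A block within a state does not turn the comparison between states into one of independent cultures. With the replicate block within each state, member counts were 13 and 41 (proliferating, membrane against cytosol; 3754 and 2519 of 11176 genes), 7 and 41 (differentiating; 2803 and 2047 genes), 0 and 6 (difference between states; 81 and 433 genes), 27 and 24 (cytosol gradient; 3397 and 3135), 31 and 12 (membrane gradient; 3184 and 1319), 17 and 7 (difference between fractions; 2279 and 1704), 30 and 4 (states; 2176 and 2375) and, for site pairs on the gradient, 0 and 1 (233 and 116 of 4554 pairs).

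Reversed log2 values were those of genes that had not passed, except Cox4i1 between states, at -0.0389 in the polysome groups. Between states Atp5a1 had 0.16 in the monosome groups and 0.17 in cytosol, Sdha 0.16 in cytosol, Cox6a1 0.11 in the polysome groups, 0.28 in cytosol, 0.0223 with DESeq2 size factors and 0.0229 with its test, and -0.157 to 0.0631 over the fits without 1 library, of which 5 were above 0. Cox7a2 had -0.021 in the polysome groups, -0.0695 in the membrane groups, -0.0098 with the replicate block, and -0.0293 to 0.242 over the fits without 1 library, of which 3 were below 0. Between fractions in differentiating cells Atp5a1 had 0.34 in the polysome groups, and Cox4i1 -0.53 in the monosome groups, -0.034 with DESeq2 size factors and with its test, -0.00846 without a filter, -0.018 with that state alone, and -0.208 to 0.312 over the fits without 1 library, of which 3 were below 0. In proliferating cells Cox4i1 had -0.27 in the monosome groups and -0.0344 to 0.483 over the fits without 1 library, below 0 without membrane monosome replicate 2. With 2 libraries a group, small differences could not be detected.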
